A study of Mus musculus with 3 samples.

Results

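The cytosolic ribosomal protein (RP) genes were taken as all gene rows named Rpl or Rps followed by a digit, or *Rplp0*, *Rplp1*, *Rplp2* or *Rpsa*, without the -ps pseudogenes and the ribosomal S6 kinases. This rule picked 46 of 9781 rows, with 19 genes of the small (40S) and 27 genes of the large (60S) subunit. RefSeq (GRCm38.p6) listed 45 of them as protein-coding genes, and *Rpl6l* as a pseudogene. The same rule picked 89 protein-coding genes in RefSeq, so the 46 rows are a part of the family. Single cell RNA-seq had been done on 3 mouse tissues labelled normal, the male urogenital sinus (UGS, the embryonic source of the prostate) at E18.5 and the prostate at P14 and P35, with 1 library for each. Tissues were dissociated with collagenase and TrypLE, a trypsin-like enzyme. Per the methods, mice were of mixed C57BL/6 and 129S1/SvImJ background. The labels used here give no genotype, sex (beyond the male UGS) or number of pooled animals.

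All 14573 cells sat in 1 table, and their barcodes ended in 1, 2 or 3. No label ties an ending to an age. The study gives a number of cells after filtering for each age, of which that of the E18.5 tissue equals the number of cells in the smallest set, whereas the other numbers match neither of the larger sets. A cell number is not a label, so the endings are called sets 1, 2 and 3, values of the sets stand side by side, and no age is compared. There were 766, 5350 and 8457 cells in sets 1, 2 and 3. Median depth was 19357 UMIs (unique molecular identifiers, each counting 1 captured RNA molecule) per cell in set 1, far above 1738 in set 2 and 1801 in set 3. With 1 library per group there is no replicate error and no test, and all intervals are exact 95% intervals for counting error only. Between the sets, 14 barcodes were shared. In set 1 hemoglobin UMIs were found in nearly every cell, and only 2 of 74 epithelium-like, 25 of 412 fibroblast-like and 4 of 65 smooth muscle-like cells had none. The part of free RNA (RNA of broken cells that enters every droplet) in the values of this set was not tested.

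Ribosomes carry out translation. Each one is built from ribosomal RNA and about equal amounts of every RP, which makes RP mRNAs a large and evenly regulated part of the mRNA of a cell. Most RP mRNAs begin with a 5′ terminal oligopyrimidine (TOP) motif, a run of C and T bases at the start of the transcript, through which growth signals of the mTOR pathway control their translation. In the prostate the secretory epithelium makes large amounts of protein, whereas fibroblasts and smooth muscle form the stroma around it.

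Start-site sequences from RefSeq (GRCm38.p6, from 250 bases before to 50 after a start) were at hand for 36 of the 46 genes. A run of at least 6 bases that were all C or T, within 15 bases of the first start listed, was found in 20 of these 36 genes (55.6%), compared with 29.0% of the other 26989 genes. The first base of the listed transcript was C or T in 15 of the 36 (41.7%), compared with 29.4% of the others. Over the whole 300 bases and both strands, the letters CGGAAG occurred in 69.4% of the RP genes and in 17.1% of the others, GGGCGG in 61.1% and 35.9%, and ATGGCG in 27.8% and 9.21%. These are matches of letters and not sites of binding. The 30 bases around the start are shown for *Rps6*, the subunit protein phosphorylated after growth signals, for *Rpl35*, *Rpl28* and *Rpl7a*, whose part of the RP UMIs differed between sets or classes as described below, and for the paralogs *Rpl22* and *Rpl22l1*. The transcript starts at base 16 of each, and capitals mark the longest run of C and T.
Rps6 (chr4:86857353-86857382, minus strand): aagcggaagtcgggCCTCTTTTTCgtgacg
Rpl35 (chr2:39005117-39005146, minus strand): cggccccgCCCTTTCCTCTTTCTCTCgaac
Rpl28 (chr7:4792950-4792979, plus strand): ccgcctctcgtgTCTCTCTTTCCgtctccg
Rpl7a (chr2:26910792-26910821, plus strand): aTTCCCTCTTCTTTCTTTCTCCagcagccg
Rpl22l1 (chr3:28805493-28805522, plus strand): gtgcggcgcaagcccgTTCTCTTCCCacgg
Rpl22, first listed start (chr4:152325711-152325740, plus strand): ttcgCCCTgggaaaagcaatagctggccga
Rpl22, other listed start (chr4:152324421-152324450, plus strand): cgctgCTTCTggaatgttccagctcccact
The runs of *Rps6*, *Rpl35*, *Rpl28* and *Rpl7a* were 10, 18, 11 and 21 bases long and spanned the listed start, which for *Rpl7a* lies inside the gene as annotated. That of *Rpl22l1* (10 bases) began just after the listed start, and *Rpl22*, with 2 listed starts of which the first lies inside the gene and the other at its first base, had runs of 4 and 5 bases.

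To ask how much of its RNA each cell type gave to RPs, cells with at least 200 genes (14476 cells) were clustered without the RP genes and the clusters were named from marker lists. Of 13 clusters, 12 were named. Cluster 10 stayed unnamed, since it carried all 17 epithelial markers with a row but had *Cd52*, of the leukocyte marker list, and none of the listed epithelial markers among its 10 leading genes, which included *Wfdc15b*, *Folr1* and the urothelial gene *Upk1a*. Over all kept cells, 10.9%, 11.7% and 13.5% of UMIs fell on the 46 genes in sets 1, 2 and 3. The medians over single cells were 10.5%, 9.13% and 11.2%.

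Epithelium-like cells gave the highest RP share of all named classes in sets 2 and 3, and neuron-like cells the lowest in all 3 sets. In epithelium-like cells RPs took 11.9%, 14.3% and 15.8% of UMIs in sets 1, 2 and 3. In fibroblast-like cells they took 9.81%, 8.03% and 9.80%. Epithelium-like cells were thus above fibroblast-like cells in each set, and the log2 ratio was 0.27 in set 1 (0.27 to 0.28), 0.83 in set 2 (0.83 to 0.84) and 0.69 in set 3 (0.69 to 0.70). The spread over single cells was wide compared with these intervals, but 85.1%, 99.5% and 97.1% of epithelium-like cells lay above the median fibroblast-like cell of their set. Different clusters held these classes in the sets: 64 of the 74 epithelium-like cells of set 1 were in cluster 4, and 224 of its 412 fibroblast-like cells were in cluster 6, which held 174 of 1810 in set 2 and 76 of 2666 in set 3. The classes were also less certain in set 1. When each cell was classed on its own, 59.46% of its epithelium-like and 63.35% of its fibroblast-like cells kept their class. In sets 2 and 3, 84.9% and 84.5% of epithelium-like and 91.3% and 95.8% of fibroblast-like cells did.

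Smooth muscle-like cells had an RP share of 12.1% in set 1 (65 cells), 8.83% in set 2 and 9.90% in set 3. The log2 ratio to fibroblast-like cells was 0.31 (0.30 to 0.31) in set 1, 0.14 (0.13 to 0.14) in set 2 and only 0.015 (0.0080 to 0.021) in set 3. In set 1 these cells had 5977 hemoglobin UMIs per 1000000 UMIs (CPM), compared with 397 in fibroblast-like cells. The part of this in the share was not tested. The smooth muscle-like share was higher under a stricter filter on cells, 11.7% in set 2 and 14.04% in set 3 among cells with at least 1000 genes, clustered anew, where fibroblast-like cells had 8.96% and 11.3%. Within the class as first clustered, the share did not rise with depth in set 3. From the lowest to the highest of 3 equal bins it was 10.7%, 10.3% and 9.36% there. It was 8.72%, 8.84% and 8.86% in set 2, and 10.9%, 11.9% and 12.4% in set 1. The class was led by *Actg2*, *Car3*, *Tpm2*, *Myl9*, *Tnnt2* and *Des*, with *Tnnc2* and *Tnnt1* also among its 10 leading genes, and *Tnnt2*, *Tnnc2* and *Tnnt1* code for troponins known from striated muscle.

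The RP shares of classes with fewer cells lay on both sides of the fibroblast-like one. Glia-like cells had 6.62% and 6.90% in sets 2 and 3 and lay below fibroblast-like cells by 0.28 and 0.51 on the log2 scale, with 10.7% in the 21 cells of set 1. In sets 2 and 3 their median depth was 1062 and 856.5 UMIs, below the 1294 and 1338 of fibroblast-like cells. The part of depth in their share was not tested. Endothelium-like cells had 11.7%, 10.1% and 10.1% in sets 1, 2 and 3 (38, 96 and 198 cells). In set 2 they had 4172 hemoglobin CPM, compared with 26.8 in fibroblast-like cells, whereas in sets 1 and 3 they had less than fibroblast-like cells. The part of hemoglobin in their share was not tested. In the 177 leukocyte-like cells of set 3 the share was 11.5%, with single-cell quartiles of 7.92% and 14.4%, further apart than in any other class there. Pericyte-like cells reached 6.81% in set 3 (127 cells). The 25, 12 and 17 neuron-like cells had 7.36%, 4.93% and 4.51%. Cluster 10 had 12.3%, 11.3% and 11.8%, which was more than the epithelium-like share in set 1 and less in the other sets.

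**Figure D1:**
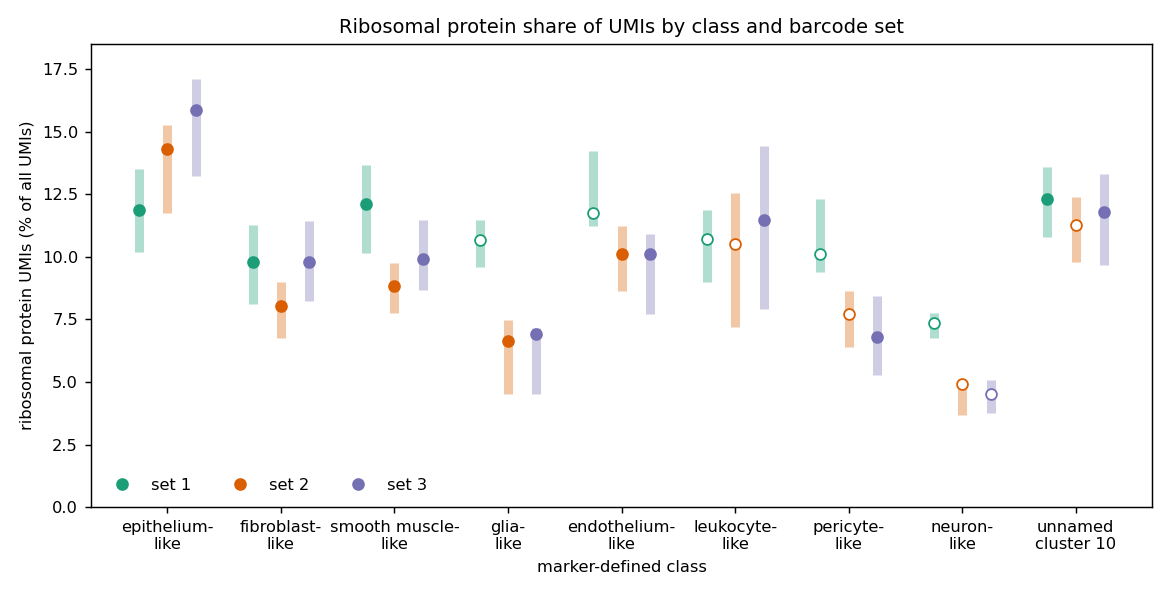
Ribosomal protein UMIs as a percent of all UMIs (y axis) by class (x axis) and barcode set (colour). Points are sums over the cells of a class, bars run from the lower to the upper quartile of single cells, and open points mark fewer than 50 cells. Epithelium-like cells sit at 14.3% in set 2 and 15.8% in set 3, above every other class, and neuron-like cells sit at 4.51% in set 3.

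The epithelium itself was not even. Cluster 4, led by *Wfdc3*, *Clca1*, *Cyp2f2* and *Tspan1*, had an RP share of 16.6% in set 2 and 16.9% in set 3. Cluster 5, led by *Lamb3* (a laminin chain of the basement membrane), *Sfn* and *Serpinb5*, had 12.5% and 13.9%. Cluster 3, led by *Lgals7* and *Serpinb5*, lay between them with 13.7% and 15.4%. Hence cluster 4 was above the other epithelium-like cells by 0.38 and 0.22 on the log2 scale, and cluster 5 below them by 0.35 and 0.25. The median cell of set 2 had 7010 UMIs in cluster 4, 5258 in cluster 5 and 2030 in cluster 3, and the part of depth in these shares was not tested.

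Cluster 6 was the only fibroblast-like cluster to carry mitotic markers, 12 of 14 with a row, and it was led by *EGFP*, a row with UMIs in set 1 but none in these classes of sets 2 and 3. Its RP share was 10.1% in set 1, 7.72% in set 2 and 8.58% in set 3. Relative to the other fibroblast-like cells it was higher by 0.087 (0.081 to 0.094) on the log2 scale in set 1 and lower in the other sets, by 0.067 in set 2 and by 0.20 in set 3, where its mitotic genes reached 2468 CPM.

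Epithelium-like cells were also deeper, with median depths of 50202, 4063 and 3572 UMIs, compared with 15651, 1294 and 1338 in fibroblast-like cells. Within epithelium-like cells the RP share was highest in the deepest of 3 equal bins of cells in each set, with 10.7%, 11.8% and 12.2% from the lowest to the highest bin in set 1, 13.6%, 13.3% and 14.8% in set 2, and 14.9%, 15.2% and 16.2% in set 3. Within fibroblast-like cells the order differed between sets, with 10.1%, 9.87% and 9.70% in set 1, 7.78%, 8.02% and 8.13% in set 2, and 10.4%, 9.90% and 9.48% in set 3. In cells with 1500 to 3000 UMIs of both classes a range chosen after the data were seen, the log2 ratio was 0.75 in set 2 and 0.65 in set 3, compared with 0.83 and 0.69 over all cells. Set 1 had too few cells in this range. Immediate early and heat shock genes, which are induced when tissue is dissociated (9 with a row, such as *Jun* and *Atf3*), summed to 3391 CPM in epithelium-like and 8199 CPM in fibroblast-like cells of set 3, and to 2555 and 3554 CPM in set 2. They summed to 10070 CPM in glia-like and 10310 CPM in pericyte-like cells of set 3, and to 3372 CPM in glia-like cells of set 2. Their part in the RP share was not tested.

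**Figure D2:**
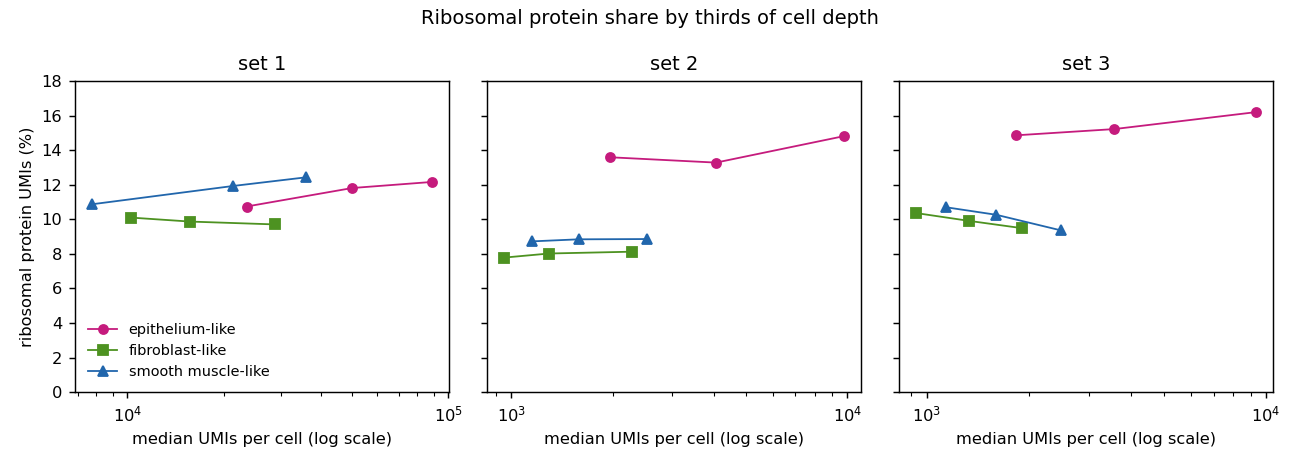
RP share (y axis, percent of UMIs) against the median UMIs per cell (x axis, log scale) for 3 equal bins of the cells of each class by depth, 1 panel for each barcode set. In sets 2 and 3 every bin of the epithelium-like cells lies above every bin of the other classes, the lowest of them at 13.3% in set 2 and 14.9% in set 3.

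Nearly all RP genes took part in the epithelial excess. Over fibroblast-like cells, 43, 46 and 45 of the 46 genes had a higher CPM in epithelium-like cells in sets 1, 2 and 3, compared with 40.1%, 47.2% and 59.2% of all rows with enough UMIs. The largest log2 ratio of a single gene was 0.60, 1.12 and 1.22. At least 2-fold higher were 0, 7 and 2 of the 46, compared with 11.9%, 12.7% and 21.7% of these rows. The 7 of 46 in set 2 were a slightly larger part than that of the rows, and in sets 1 and 3 the part was smaller. None of the 46 was 2-fold lower (21.8%, 15.1% and 16.4% of rows). The median log2 ratio of the RP genes was 0.26, 0.81 and 0.65, compared with -0.19, -0.06 and 0.23 over all rows.

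*Rpl32*, a protein of the large subunit, was among the genes with a large excess, and it was chosen here after its values were seen. It had 3925, 5294 and 5591 CPM in the epithelium-like classes of sets 1, 2 and 3, compared with 2756, 2496 and 2398 CPM in fibroblast-like cells. It was thus more than 2-fold higher in sets 2 and 3. At the other end was *Rpl7a* (GRCm38.p6, chr2:26910685-26913312), a large subunit protein, with 1259, 1431 and 1621 CPM in epithelium-like cells, whereas fibroblast-like cells had 1367, 1166 and 1392 CPM. It was lower in epithelium-like cells in set 1 and only slightly higher in sets 2 and 3 (log2 ratios of -0.12, 0.30 and 0.22). *Rpl10* was below 0 in set 1 as well (-0.17), as was *Rps9* (-0.03), whose interval (-0.06 to 0.004) included 0. *Rpl22l1* was the single one below 0 in set 3, where its interval (-0.07 to 0.03) included 0.

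**Figure D3:**
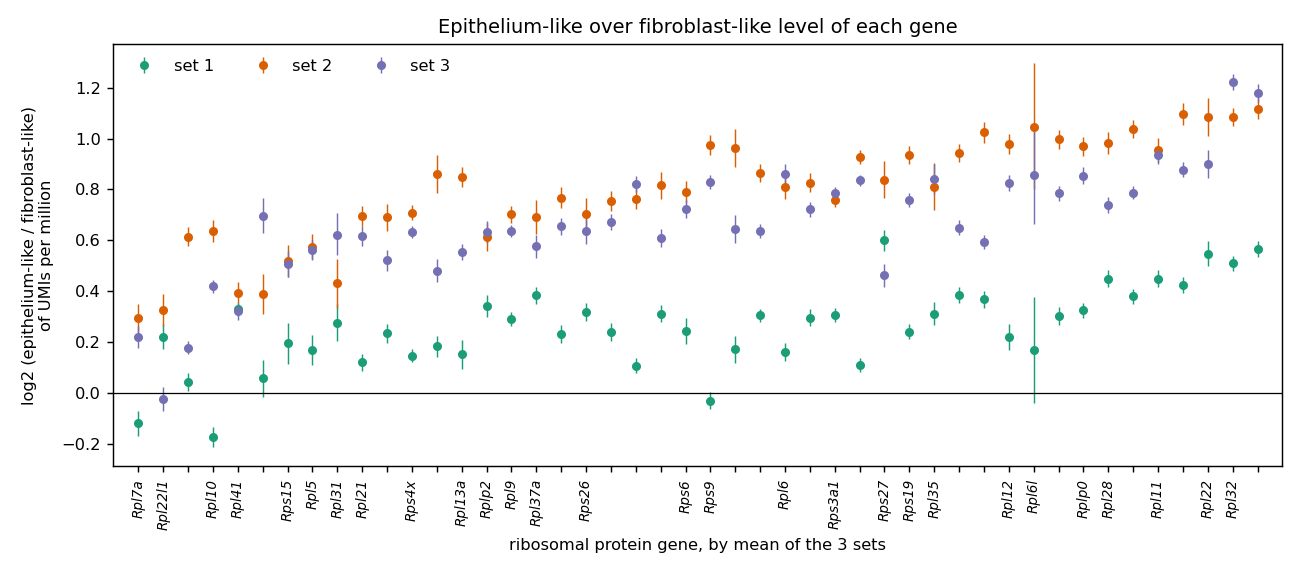
log2 ratio of epithelium-like over fibroblast-like UMIs per 1000000 UMIs (y axis) for the 46 genes in order of their mean (x axis), by barcode set (colour), with 95% counting intervals. Genes described in the text are named on the axis. All genes lie above 0 in set 2, and *Rpl7a* and *Rpl22l1* have the lowest mean ratios.

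Genes with known roles outside plain assembly moved with the rest. *Rpl5* and *Rpl11* belong to the 5S particle that binds the p53 regulator Mdm2, and their log2 ratios were 0.17, 0.58 and 0.56 for *Rpl5* and 0.45, 0.95 and 0.93 for *Rpl11*. *Rps19*, a gene mutated in Diamond-Blackfan anemia, had 0.24, 0.94 and 0.76. *Rps6* had 0.24, 0.79 and 0.72, and the X-linked *Rps4x* had 0.15, 0.71 and 0.63. Of the P-stalk, the flexible arm of the large subunit that recruits elongation factors, *Rplp0* and *Rplp2* have a row and had 0.33, 0.97 and 0.85, and 0.34, 0.61 and 0.63. All 7 were therefore higher in epithelium-like cells of each set, by less than 2-fold.

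In set 1 the excess of smooth muscle-like cells was close to the epithelial one. The order of both turned there with another denominator, with each cell classed on its own, or with RP genes among the clustering features. In the other sets the excess of smooth muscle-like cells was smaller and less even. The median log2 ratio of the RP genes to fibroblast-like cells was 0.30, 0.18 and 0.04 in sets 1, 2 and 3, compared with -0.12, -0.14 and -0.10 over all rows. In this order 46, 40 and 29 of the 46 genes were higher (39.9%, 38.4% and 44.6% of rows), none by 2-fold or more (background 2.28%, 6.13% and 10.6% of rows), and none was 2-fold lower (9.58%, 6.48% and 13.3% of rows). *Rps26*, a small subunit protein, had log2 ratios of 0.59, 0.32 and 0.20 and was higher in each set. *Rps27* had 0.18 in set 1 but -0.10 and -0.37 in sets 2 and 3, and *Rpl28* had 0.27 but -0.21 and -0.29. In glia-like cells, 44 of 46 genes in set 2 and 46 of 46 in set 3 were lower than in fibroblast-like cells (53.8% and 48.1% of rows), with medians of -0.27 and -0.50, compared with -0.06 and 0.03 over all rows.

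To find genes that did not follow the group, each gene was also scaled to 10000 RP UMIs, which removes the share itself. A gene was called uneven in a class when it differed at least 1.5-fold, in 1 direction, from the cells of all other named classes in every set with at least 50 cells of the class. Only classes with 2 or more such sets were judged, which left out leukocyte-like, pericyte-like and neuron-like cells. No RP gene was uneven in epithelium-like, fibroblast-like, smooth muscle-like, glia-like or endothelium-like cells. On the same scale 3.90%, 17.9%, 2.01%, 62.5% and 21.8% of all rows were higher, and 31.2%, 5.55%, 6.99%, 1.36% and 6.12% were lower, in these classes in that order. This scale centres the RP genes by its construction and moves all other rows with the RP share of a class, so these rows are no like background. The median absolute log2 ratio of the RP genes was between 0.084 and 0.12 over the 5 classes. Scaled to the UMIs of all genes instead there were 43 calls. Of these, 41 were genes lower in glia-like cells (8.65% of rows), and the others were *Rps27*, higher in epithelium-like cells (7.64% of rows), and *Rps26*, lower in endothelium-like cells (11.7% of rows).

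*Rpl7a* came closest to being uneven in these 5 classes, and it is described here after its values were seen. In epithelium-like cells it made up 106, 100 and 102 of 10000 RP UMIs in sets 1, 2 and 3. In fibroblast-like cells it made up 139, 145 and 142, and in smooth muscle-like cells 144, 151 and 161. The epithelial level was thus below both stromal levels in each of the 3 sets, and against all other named classes the log2 ratio was -0.43, -0.56 and -0.53. Against the pooled cells of all other named classes, *Rpl7a* was higher in glia-like cells, by 0.57 in set 2 and 0.43 in set 3. Epithelium-like cells gave most of the RP UMIs of these pools. With a limit of 1.3-fold, added later, the 2 calls were *Rpl7a*, lower in epithelium-like cells (42% of rows) and higher in glia-like cells (72.3% of rows). Other genes with the same direction in each set included *Rpl32* (0.15, 0.20 and 0.39) and *Rpl28* (0.14, 0.30 and 0.16) in epithelium-like cells, *Rps26* in endothelium-like cells (-0.38 and -0.50 in sets 2 and 3) and *Rps26* in smooth muscle-like cells (0.32, 0.30 and 0.25), where *Rpl28* had -0.11, -0.47 and -0.34.

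*Rpl22* and *Rpl22l1* code for paralogous proteins that occupy the same place in the large subunit, and they were the only pair of the planned paralogs with both rows. *Rpl22l1* lies at chr3:28805508-28807424 and *Rpl22* at chr4:152324436-152334082 (GRCm38.p6). In epithelium-like cells *Rpl22l1* gave 49.1% (48.2 to 50.1), 48.0% (47.3 to 48.7) and 44.2% (43.7 to 44.7) of the UMIs of the pair in sets 1, 2 and 3. In fibroblast-like cells it gave 54.8% (54.0 to 55.5), 60.9% (59.5 to 62.4) and 60.0% (58.9 to 61.1). The part of *Rpl22l1* was thus below the fibroblast-like value in the epithelium-like cells of every set, and the epithelial interval of set 1 included an even split of the pair. Smooth muscle-like cells lay between, with 52.5%, 54.2% and 50.5%. *Rpl22* had 1426, 1193 and 1443 CPM in epithelium-like and 976, 562 and 774 CPM in fibroblast-like cells, and was higher in the former by 0.55, 1.09 and 0.90 on the log2 scale. *Rpl22l1* had 1378, 1100 and 1143 CPM in the former and 1181, 878 and 1161 CPM in the latter, so that it was also higher in sets 1 and 2, by 0.22 and 0.33, and had -0.02 in set 3. In leukocyte-like cells *Rpl22l1* gave 34.0% in set 1 (38 cells), 50.9% (42.9 to 59.0) in set 2 (25 cells) and 38.9% in set 3. *Rpl6l* gave between 2.98% and 4.48% of the UMIs of the pair with *Rpl6* in epithelium-like and fibroblast-like cells. RP genes have many near-identical processed copies in the genome, and how reads shared with these were treated was not given in the sources used here, so the percents of a pair and the levels of different genes may hold reads of such copies.

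**Figure D4:**
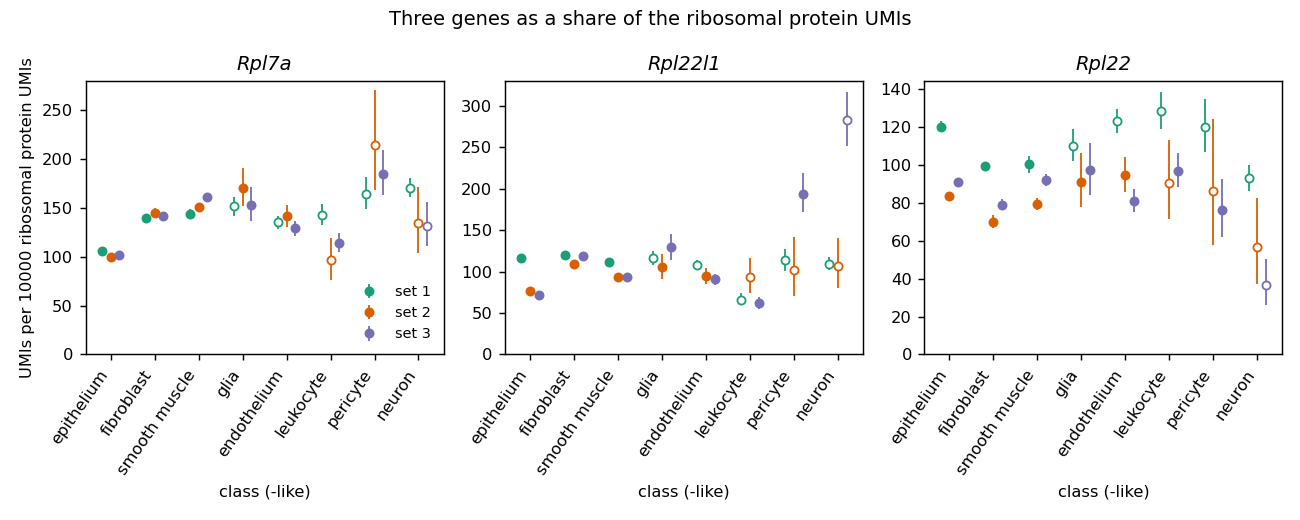
UMIs per 10000 RP UMIs (y axis) of *Rpl7a*, *Rpl22l1* and *Rpl22* by class (x axis) and barcode set (colour), with 95% counting intervals and open points for fewer than 50 cells. *Rpl7a* lies at 100 to 106 in epithelium-like and at 139 to 145 in fibroblast-like cells, and *Rpl22l1* is highest in the 17 neuron-like cells of set 3 (283), followed by the pericyte-like cells of that set (194).

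The number of UMIs, which is not scaled to length, ranged widely among the genes. *Rps3a1*, *Rps4x* and *Rpl9* were among those with the most UMIs over all kept cells, with 355936, 338509 and 286639, and each was found in at least 97.7% of the cells of every set. The fewest were on *Rpl31* and *Rpl6l*, with 31712 and 5571 UMIs. *Rpl6l* had a UMI in 69.4% of the deep cells of set 1, and in 18.1% and 19.9% of the cells of sets 2 and 3.

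The RP make-up differed more between set 1 and the other sets than between sets 2 and 3. Within epithelium-like cells the median absolute log2 ratio of a gene per 10000 RP UMIs was 0.34 for set 2 over set 1 and 0.40 for set 3 over set 1, but 0.089 for set 3 over set 2. In fibroblast-like cells it was 0.29, 0.36 and 0.15. In epithelium-like cells of set 2, 5 genes were at least 1.5-fold higher and 9 at least 1.5-fold lower than in set 1 (14.9% and 41.2% of rows), and in set 3 there were 7 and 9 (9.96% and 54.0% of rows). In fibroblast-like cells there were 5 and 8 in set 2 (27.3% and 26.6% of rows), and 6 and 6 in set 3 (13.6% and 49.6% of rows). In smooth muscle-like cells there were 5 and 7 in set 2 (39.8% and 11.5% of rows), and 6 and 5 in set 3 (25.9% and 25.6% of rows). Since this scale centres the RP genes and moves all other rows with the RP share, these rows are no like background.

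The same genes stood at both ends in epithelium-like, fibroblast-like and smooth muscle-like cells. *Rpl35*, a large subunit protein at the exit of the peptide tunnel, made up 137, 47.0 and 72.4 of 10000 RP UMIs in epithelium-like cells of sets 1, 2 and 3, and the fibroblast-like values were 133, 47.7 and 65.4. *Rpl37a* stood at 247, 85.7 and 114 in the former, and at 229, 94.5 and 123 in the latter. *Rps26* stood at 213, 90.5 and 96.6, and at 207, 99.0 and 101 in the same order. *Rpl41*, the smallest RP, stood at 436, 192 and 174, and at 420, 259 and 226. These 4 genes were thus lower in sets 2 and 3 than in set 1 in both classes.

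At the other end, *Rpl13a*, the large subunit protein known from the GAIT complex of interferon-treated cells, made up 82.5, 256 and 213 of 10000 RP UMIs in epithelium-like and 89.7, 253 and 235 in fibroblast-like cells. *Rpl12*, part of the base of the P-stalk, stood at 106, 289 and 288, and at 109, 261 and 263. *Rps15* stood at 42.3, 88.2 and 83.4, and at 44.7, 110 and 94.8. *Rpl5* stood at 74.5, 146 and 144, and at 80.2, 175 and 158. All were higher in sets 2 and 3 than in set 1. *Rps6* took the same course, with 109, 201 and 205 in epithelium-like cells. Between sets 2 and 3, *Rpl21* was lower in set 3 (252 and 149 in epithelium-like cells) and *Rpl10* higher (182 and 300), and both differences had the same direction in the 3 classes.

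Genes with a short coding sequence were mostly those lower in sets 2 and 3. A coding length was found for 43 of the 46 genes in GENCODE M1, where the median was 441 bases. In epithelium-like cells, 15 of the 21 shorter genes and 6 of the 22 others were below 0 for set 2 over set 1, with medians of -0.40 and 0.18. Across the genes, which are not independent and share libraries, Spearman's rho of the log2 ratio with coding length was 0.70 in epithelium-like, 0.64 in fibroblast-like and 0.66 in smooth muscle-like cells for set 2 over set 1, and 0.63, 0.50 and 0.51 for set 3 over set 1. Over the other rows it was between -0.02 and 0.16. For set 3 over set 2 the sign was the opposite, -0.30, -0.32 and -0.35 over the RP genes, and -0.14, -0.01 and -0.16 over the other rows. Set, age, library and depth cannot be told apart here.

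**Figure D5:**
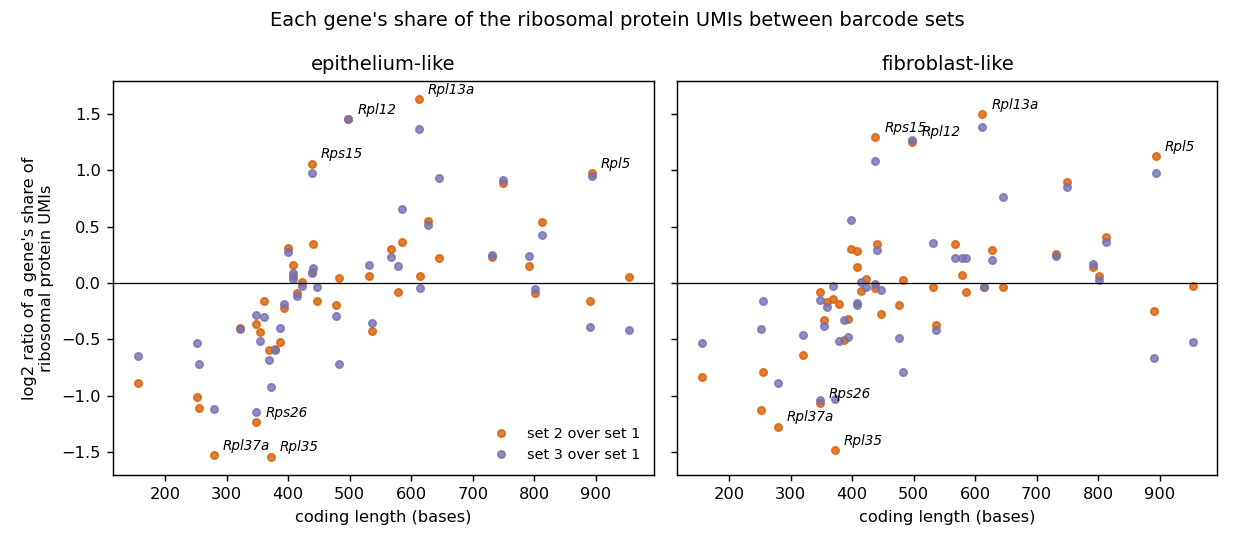
log2 ratio of a gene's share of the RP UMIs in set 2 or set 3 over set 1 (y axis) against its coding length in bases (x axis) for the 43 genes with a length, in epithelium-like and fibroblast-like cells. For set 2 over set 1, *Rpl35* lies lowest and *Rpl13a* highest in both panels. For set 3 over set 1, *Rpl12* lies highest in epithelium-like and *Rpl13a* in fibroblast-like cells.

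Both subunits gave similar parts of the RP UMIs. Small subunit genes gave 46.9%, 49.9% and 50.2% of the RP UMIs in epithelium-like cells of sets 1, 2 and 3. They gave 47.6%, 49.5% and 49.7% in fibroblast-like cells and 47.2%, 48.7% and 48.8% in smooth muscle-like cells. Glia-like cells had 47.4% in set 2 and 48.5% in set 3. Over the classes of set 3 with at least 50 cells the range ran from 46.7% in pericyte-like to 50.2% in endothelium-like cells, slightly wider than the difference between the epithelium-like cells of sets 1 and 3.

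Other genes of the translation machinery were read from lists. Of 7 further genes known for TOP mRNAs with a row, such as translation factors, 5, 6 and 7 had a log2 ratio of epithelium-like over fibroblast-like above 0 in sets 1, 2 and 3, where 40.1%, 47.2% and 59.2% of all rows did. Their median was 0.07, 0.75 and 0.68, compared with -0.19, -0.06 and 0.23 over all rows. Mitochondrial RP genes, which serve the separate ribosome of mitochondria, were higher in 28, 32 and 36 of 38 genes tested, with medians of 0.39, 0.43 and 0.86. Genes of ribosome biogenesis, which make and process ribosomal RNA, were higher in 6 of 23, 9 of 25 and 22 of 25 genes, with medians of -0.28, -0.10 and 0.26, close to those over all rows. In glia-like cells, where the RP share was low, the summed UMIs of mitochondrial RP genes differed by 0.13 (-0.01 to 0.26) and 0.71 (0.58 to 0.83) from fibroblast-like cells in sets 2 and 3. Of the genes tested, 11 of 21 and 22 of 23 were above 0 (46.25% and 51.9% of rows). Their medians were 0.18 and 0.615, compared with -0.06 and 0.03 over all rows. The summed UMIs of the further TOP genes had -0.18 and -0.35 in these cells.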

How the data were processed

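Per the labels, libraries were made with the 10x Genomics 3′ kit (v3 chemistry, while the study's methods name v2) and counted by the authors with Cell Ranger 3.1.0 on mm10, to which transgene sequences had been added. They filtered cells (on mitochondrial RNA, empty droplets and multiplets) and deposited values on a natural log scale, ln of 1 plus 10000 times the UMIs of a gene over the total of the cell. UMIs were recovered from these values. All 11120293 values above 0 were whole within 0.05 UMI. The table is held in part (9784 rows, the last filled for 7365 cells), and 9781 rows were kept. Shares use the total of the cell, which covers genes without a row (rows held 49.4% to 52.7% of the UMIs). Mitochondrial genes have no row.

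Cells with under 200 genes were left out (97, all in set 3). Sets were integrated in Seurat 5.3.0 (20 dimensions, 30 components, resolution 0.5) after the study's steps, with cell cycle scores regressed out and RP genes left out of the features. A cluster was named from marker lists (at least 3 markers in at least 10% of cells and 2-fold over the median cluster), by a rule set after clustering. Scrublet (scanpy 1.11.5) put 3, 0 and 0 cells over its threshold, too few to count as working, so no cell was removed. The members and lists were chosen with earlier results of these data known. Genes named were the paralogs, the P-stalk genes, uneven genes, those with the most and fewest UMIs, those with the largest set differences and 5 fixed genes. Some of these are not reported here. Others are marked in the text as chosen after their values were seen or stand at the ends of a range. Rates are UMIs per 1000000 UMIs (CPM), with exact Poisson intervals. Ratios have intervals from the binomial split of 2 sums (sums under 3 set to 3), genes needed 100 UMIs over the compared cells, and all cover counting error only. The recovery and ratio steps were tested on simulated data. Alternatives changed the denominator, the clustering, the cells and the limits. Sequences and positions came from RefSeq (GRCm38.p6) and coding lengths (lowest-numbered transcript) from GENCODE M1. The genome sequence was of a build other than mm10, so none was read from it. No column of other samples was left out (0).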

Additional observations from a re-analysis of the deposited data

Results flagged for a closer look

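None of the differences below between sets was tested, because each set is 1 library. Cluster 6 of the fibroblast-like cells, which carries mitotic markers, had a higher RP share than the other fibroblast-like cells in set 1 (log2 ratio 0.087) and a lower one in sets 2 and 3 (-0.067 and -0.20). Glia-like over fibroblast-like cells had log2 ratios of 0.12, -0.28 and -0.51 in sets 1, 2 and 3, where set 1 held 21 glia-like cells. Pericyte-like over fibroblast-like cells had 0.044, -0.060 and -0.52, with 10 and 28 pericyte-like cells in sets 1 and 2. Thus the sign turned between set 1 and the other sets in all 3 comparisons.

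For set 2 over set 1 the log2 ratio of the RP share was 0.27 in epithelium-like, -0.29 in fibroblast-like and -0.46 in smooth muscle-like cells. For set 3 over set 1 it was 0.42 in epithelium-like, -0.29 in smooth muscle-like and -0.0020 in fibroblast-like cells, where the interval (-0.0076 to 0.0036) included 0. For set 3 over set 2 all 3 classes were higher, by 0.15 in epithelium-like, 0.29 in fibroblast-like and 0.17 in smooth muscle-like cells.

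Both pseudogene rows outside the comparisons had UMIs. *Rps18-ps3* had 981, 42 and 238 UMIs in the sets in order, and was found in 56.4%, 0.785% and 2.71% of cells. *Rps26-ps1* had 658, 296 and 716 UMIs, in 48.2%, 5.05% and 7.70% of cells. As these copies resemble their parent genes, whether the reads came from them was not tested.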

How the results depend on the processing

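Each set is 1 library, no replicate numbers exist and the gene table is held in part, so all intervals cover counting error only and most alternatives moved a value past them without changing its direction. No paired analysis was possible because no result comes from a test and no label pairs cells. Of 134 values computed again, 34 were judged the same, 99 moved and 1 changed sign. A value was the same if it stayed within the counting interval. For the counts of uneven genes, which have no interval, it was the same if the count was equal. Epithelium-like cells stayed above fibroblast-like cells in every set under every alternative that gave a value. The smooth muscle-like ratio in set 3 was near 0 in all kept cells and changed with the setting, and among cells with at least 1000 genes the share was above the fibroblast-like one. Classes of under 50 cells gave no value (smooth muscle-like cells of set 1 with at least 1000 genes, all 3 classes of set 1 without integration, and set 1 at 1500 to 3000 UMIs or without hemoglobin UMIs). Values follow the order of sets 1, 2 and 3 unless sets are named. Alternatives chosen after seeing the data were joining cluster 10, leaving out the mitotic cluster, the depth band, leaving out cells with a hemoglobin UMI, and the limit of 1.3-fold. Leaving out cells with a hemoglobin UMI moved neither the epithelium-like nor the smooth muscle-like ratio past its interval in sets 2 and 3. It was not done for the other classes.

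With UMIs of the gene rows as the denominator, the RP share was 23.2%, 28.7% and 32.0% in epithelium-like, 18.4%, 15.6% and 19.1% in fibroblast-like and 22.8%, 17.5% and 20.5% in smooth muscle-like cells, and 20.6%, 23.2% and 27.4% in all kept cells. The log2 ratios to fibroblast-like cells were 0.34, 0.88 and 0.74 for epithelium-like and 0.31, 0.17 and 0.10 for smooth muscle-like cells, and the mitotic cluster of set 1 had 0.11. With cells classed one by one, shares were 12.2%, 14.5% and 15.9% in epithelium-like, 9.70%, 8.48% and 10.3% in fibroblast-like and 11.6%, 9.11% and 10.2% in smooth muscle-like cells. The ratios were then 0.33, 0.78 and 0.64 for epithelium-like and 0.25, 0.10 and, with the sign changed, -0.0018 for smooth muscle-like cells. At resolution 1.0, shares were 11.8%, 14.5% and 16.0% for the epithelium-like class, and 9.13% and 10.4% for the smooth muscle-like class of sets 2 and 3. Ratios were 0.26, 0.86 and 0.71, and 0.19 and 0.085 in sets 2 and 3.

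With at least 1000 genes per cell, shares were 12.0%, 15.3% and 16.5% for the epithelium-like class, 10.1%, 8.96% and 11.3% for the fibroblast-like class, and 11.7% and 14.04% in smooth muscle-like cells of sets 2 and 3, with epithelium-like ratios of 0.24, 0.77 and 0.55. As a mean over cells, shares were 11.8%, 13.7% and 15.2% in epithelium-like cells, 7.96% and 9.94% in fibroblast-like cells of sets 2 and 3, 11.9% and 10.2% in smooth muscle-like cells of sets 1 and 3, and 10.6%, 9.87% and 11.7% in all kept cells, and the epithelium-like ratios were 0.27, 0.78 and 0.62. With RP genes among the clustering features, shares were 12.1% in epithelium-like and 11.6% in smooth muscle-like cells of set 1 and 7.99% in fibroblast-like cells of set 2, and the ratios were 0.30 and 0.84 in sets 1 and 2. Without integration, epithelium-like cells of set 3 had 15.9%, fibroblast-like cells of sets 2 and 3 had 8.23% and 9.83%, smooth muscle-like cells of set 2 had 8.79%, and the epithelium-like ratio in set 2 was 0.79. Without the 5% of cells with the highest doublet scores, shares were 11.7%, 14.4% and 16.0% in epithelium-like cells, 9.77% and 7.99% in fibroblast-like cells of sets 1 and 2, and 12.3% in smooth muscle-like cells of set 1.

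The epithelium-like ratio was 0.29 and 0.68 in sets 1 and 3 without the 3 RP genes with the most UMIs, 0.30, 0.82 and 0.67 with cluster 10 joined, 0.32, 0.82 and 0.68 without the mitotic fibroblast-like cluster, and 0.75 and 0.65 in cells of sets 2 and 3 with 1500 to 3000 UMIs. The smooth muscle-like ratio was 0.35, 0.13 and 0.0052 without the mitotic cluster and 0.046 in set 3 in the depth band. In the 5 classes judged, no RP gene was uneven at a fold of 2, with cells classed one by one, or with at least 30 UMIs. At 1.3-fold there were 2 calls, where 42% and 72.3% of rows were called in the same class and direction, on a scale that moves all other rows with the RP share. Scaled to the UMIs of all genes instead of RP UMIs there were 43, of which 41 were lower in glia-like cells (8.65% of rows), since that scale keeps the low share of glia-like cells.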

Other observations

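The 127 pericyte-like cells of set 3 are described here after their values were seen. *Rpl22l1* made up 194 of 10000 RP UMIs there (260 UMIs). Against the pooled cells of the other named classes it was higher by 1.27 (1.09 to 1.45) on the log2 scale, though neuron-like cells of set 3 had a larger part. *Rpl7a* was higher by 0.70 (0.52 to 0.88) and *Rpl41* by 0.66 (0.51 to 0.80). *Rpl22l1* gave 71.8% (66.9 to 76.4) of the UMIs of its pair with *Rpl22* in these cells. Only 10 and 28 pericyte-like cells in sets 1 and 2 gave 48.6% and 54.0%.

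Neuron-like cells, led by *Pcsk1n*, *Stmn3*, *Stmn2* and *Phox2a*, had the pair furthest from balance in set 3, where *Rpl22l1* gave 88.6% (84.6 to 91.8) of the UMIs in 17 cells. It gave 54.1% in the 25 cells of set 1 and 65.4% in the 12 cells of set 2. These values rest on few cells of 1 library each and were noticed in the data.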
